A study of Mesocricetus auratus with 7 samples.

Results

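In golden hamster (Mesocricetus auratus) oocytes at the germinal vesicle (GV) stage, fully grown, the levels of 101 genes were ordered by the number of mutant Mov10l1 alleles in every library. GV oocytes are arrested in the first meiotic prophase and live on stored maternal mRNA. A gene was a member where its CPM (the count scaled to a column total of 1000000 counts per library) averaged at least 2 over the 7 libraries, and where no library of a genotype overlapped a library of the next. Of 22285 genes in the table, 8414 (37.8%) reached the CPM minimum, and 101 of these (1.2%) met the order. In 31 genes it was WT < HET < KO, and these are called ascending below. In 70 genes it was WT > HET > KO, and these are called descending. The members were thus chosen by the CPM values of these same libraries, and their levels are given as a description. Fits over the whole table are given further on, and nothing is read from their calls of members.

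RNA was sequenced from females with 0 (wild type, WT, n = 2), 1 (heterozygote, HET, n = 2) or 2 (homozygous mutant, KO, n = 3) mutant alleles. The WT females were 37 (WT 1) and 17 (WT 2) weeks old, the HET females 40 (HET 2) and 36 (HET 3), and the KO females 45 (KO 1), 40 (KO 2) and 36 (KO 3). All mutant alleles descended from a single founder female made by CRISPR/Cas9 electroporation in vivo, whose line was then bred to outbred wild-type animals before heterozygotes were intercrossed. Each library was amplified from the RNA of 6 to 12 oocytes, and nothing in the labels says that litters were shared. The authors state that 2 oocyte RNA libraries, outliers of low complexity, were excluded from their analysis. An order required in every library depends on which libraries are kept. With 2 or 3 libraries per genotype, and a WT female of 17 weeks among older animals, genotype and age are only partly separable.

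PIWI-interacting RNAs (piRNAs) are small RNAs cut from longer single-stranded RNAs, and germ cells without the helicase MOV10L1 make few or none. piRNAs guide PIWI proteins to transposon transcripts and to some mRNAs, and hamster oocytes, unlike those of the mouse, express an oocyte PIWI protein, PIWIL3. A heterozygote keeps an intact copy of the gene, and HET oocytes show where a transcript lies when a single copy is mutant.

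The mutant allele lacks exon 20 of Mov10l1. It was made with guide pairs in the introns on either side, and their DNA targets are shown because they define the allele whose copies were counted. Capitals mark the last 3 bases of each target, which have the form of the PAM read by Cas9. Genome coordinates and strand are not given here.
Intron 19 target 1: gggtatcacatgacttgGGG
Intron 19 target 2: ggtgttgggatcatagtgGGG
Intron 20 target 1: tctccactcttccatgtgGGG
Intron 20 target 2: taccattacatttgtcagGGG

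Mov10l1 (ENSMAUG00000003667) itself was left out of the members by rule, as were 7 other genes described for these data before, and none of these 8 met the order. Mov10l1 stood at 13.8 and 36.2 CPM in WT, 15.9 and 18.8 in HET, against 4.6, 6.4 and 3.26 in KO. All KO libraries were below the rest, but the HET libraries lay between the WT libraries, so its transcript did not follow allele number in every library. Library totals lay between 24242442 and 33956304 estimated counts, with 9860 to 10585 genes at 10 counts or more. A single count was worth 0.0294 to 0.0412 CPM, and a level near these values rests on a few reads. The reads carried no molecular identifiers, and read counts therefore include copies made during amplification.

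The count of members was set beside the counts of genes in which the same 3 genotypes did not overlap but followed another order. With CPM, 266 genes had all genotypes apart. HET was the middle genotype in 101 of these (38.0%), WT in 82 (30.8%) and KO in 83 (31.2%). By single orders, the background with HET outermost was 0.345% of tested genes for HET < WT < KO (29 genes), 0.428% for WT < KO < HET (36), 0.559% for HET < KO < WT (47) and 0.63% for KO < WT < HET (53). The ascending order took 0.368% of tested genes and the descending order 0.832%. HET was therefore in the middle somewhat more often than either homozygote, but orders with WT or KO in the middle together made up most of the separated genes. Where the outer means differed by at least 2-fold, HET was in the middle in 43 genes, WT in 30 and KO in 59. Where neighbouring genotypes were at least 1.2-fold apart at their nearest libraries, HET was in the middle in 17 genes, WT in 9 and KO in 13.

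The balance of ascending and descending members depended on how libraries were scaled. With CPM, 30.7% of the members were ascending. With the median-of-ratios size factors of DESeq2 there were 49 ascending and 40 descending genes (55.1% ascending), and with the TMM factors of edgeR 55 and 40 (57.9%). Over all 8414 tested genes, the median KO level minus the WT level on the log2 scale was −0.09 by CPM, −0.01 by size factors and −0.005 by TMM. Of the 101 members, 58 kept their order under all 3 scalings, comprising 30 of 31 ascending but only 28 of 70 descending genes. By size factors HET was the middle genotype in 36.3% of the separated genes, KO in 34.3% and WT in 29.4%, so that HET was barely ahead of KO, and by TMM these shares were 38.2, 32.5 and 29.3%.

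**Figure D1:**
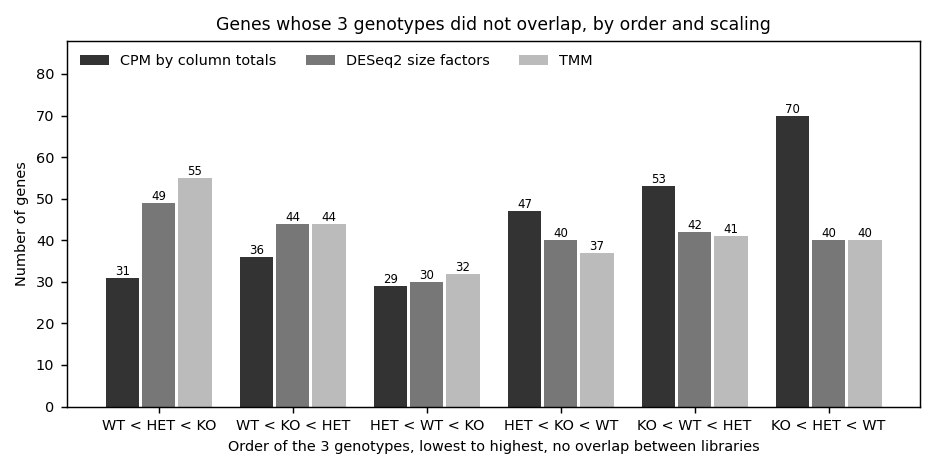
Number of genes (vertical axis) with mean CPM of at least 2 whose 3 genotypes did not overlap, for each order of the genotypes from lowest to highest (horizontal axis), with a bar for each scaling. The order KO < HET < WT held 70 genes by CPM and 40 by either other scaling, and the order WT < HET < KO held 31 by CPM, 49 by size factors and 55 by TMM.

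The 31 ascending genes tended to be less abundant than the tested genes, and 3 had at most 3 counts in every WT library. The median of their mean CPM was 12.1, against 20.3 over all tested genes, with 13 genes under 10 CPM and 5 at 100 or more. The median KO level was 252% of WT and the median HET level 143%, whereas over all tested genes these medians were 93.8% and 98.6%. In 20 of the 31 the KO mean was at least 2-fold above the WT mean, and all 20 kept their order under the 3 scalings. A symbol was at hand for 9 ascending and 11 descending members, from pairs of identifiers and symbols in the study's lists of changed genes. A member with a symbol is thus one that had been listed as changed somewhere in the study, so the named genes are not typical of the 101.

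Pdzrn4, which encodes a protein with PDZ and RING-finger domains, had the largest relative difference of the members between KO and WT. It was at 0.0825 and 0.0318 CPM in WT, 47.1 and 35.0 in HET, against 93.3, 91.3 and 119 in KO. These values correspond to 2 and 1 counts in WT, 1423 and 978 in HET, against 2422, 3099 and 3306 in KO. The transcript was practically absent from WT oocytes and the HET mean of 41.1 ± 8.54 CPM (SD, n = 2) was 40.6% of the way to the KO mean of 101 ± 15.2 (SD, n = 3). Against a floor of 3 counts per WT library, it was at least 375-fold higher in HET and at least 922-fold higher in KO.

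Cntn1, the gene of the neuronal adhesion molecule contactin 1, was also close to 0 in WT, at 0.0412 and 0 CPM. It reached 0.497 and 1.90 CPM in HET, against 5.66, 9.54 and 9.44 in KO. HET oocytes held only 14.4% of the difference between the WT and KO means, so that on the CPM scale most of the difference lay between HET and KO. The KO mean of 8.21 ± 2.21 CPM (SD, n = 3) was at least 74.9-fold above the WT floor and 6.86 times the HET mean. The HET mean was uneven, and the last ratio was 4.33 without HET 2 and 16.5 without HET 3. Pdzrn4 and Cntn1 lie on the same scaffold of the MesAur1.0 assembly as Mov10l1, according to the study's gene lists. A HET animal carries 1 and a KO animal 2 copies of the founder's chromosome around the deleted exon, and effects of the deletion and of sequence linked to it cannot be told apart for these 2 genes. The scaffold of most members without a symbol was not listed. Genes on another scaffold can still be linked, so the same limit may hold for other members.

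Lrp2, which encodes the endocytic receptor megalin, was not on that scaffold. Its CPM values were 0.402 and 0.0636 in WT, 2.31 and 1.90 in HET, against 11.1, 12.6 and 5.60 in KO. The groups were far apart although KO 3 was at less than the level of the other KO libraries. The KO mean of 9.79 ± 3.71 (SD, n = 3) was 42.0 times the WT mean of 0.233 ± 0.239 (SD, n = 2), and HET lay at 19.6% of the way. The WT mean rests on 9.75 and 2 counts. Without WT 2 the KO mean was 24.3 times WT 1, and without WT 1 it was at least 103-fold above the floor of WT 2. The log2 fold change of KO against WT fitted by DESeq2 was 5.47, and 4.21 with age as a covariate. The clear step is the smaller of both log2 gaps between the nearest libraries of neighbouring genotypes, on log2(CPM + 0.5), and at 1.12 it was the widest of any member in Lrp2.

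Epb41l1 is a member of the band 4.1 family linking membrane proteins to the actin and spectrin cytoskeleton. On the linear CPM scale most of its difference was already in HET, unlike in Pdzrn4, Cntn1 and Lrp2. By fold, HET to WT exceeded KO to HET in those genes too (Pdzrn4 at least 375 against 2.46, Cntn1 at least 10.9 against 6.86, Lrp2 9.03 against 4.65). Epb41l1 was at 0.907 and 1.59 CPM in WT, 10.1 and 9.49 in HET, against 12.9, 17.4 and 18.3 in KO. The HET libraries were close to each other and clear of both other genotypes. HET was 7.85 times and KO 13.0 times the WT mean, and HET lay 57.3% of the way. The ascending gene ENSMAUG00000013244 had no symbol and the lowest mean of the ascending members (2.26 CPM). It had 0 and 2 counts in WT, 43 and 17 in HET, against 57, 99 and 240 in KO, and was at least 41.7-fold higher in KO than the WT floor, or at least 23.3-fold without KO 3.

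**Figure D2:**
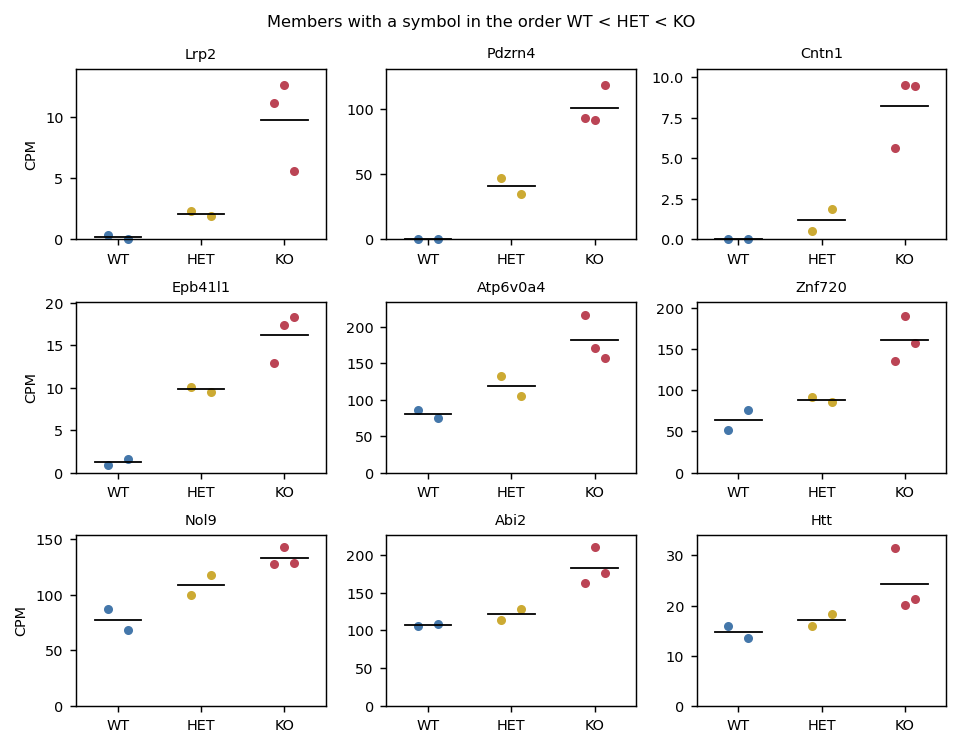
CPM (vertical axes, each from 0) of the 9 ascending members with a symbol, with a point for each library and a line at the genotype mean. Pdzrn4 and Cntn1 begin at or near 0 in WT, whereas Htt and Abi2 had WT means of 14.7 and 107 CPM and far narrower steps.

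Abundant ascending genes had smaller differences. Atp6v0a4, a subunit of the proton pump that acidifies intracellular compartments, stood at 86.4 and 75.0 CPM in WT, 133 and 106 in HET, against 216, 171 and 157 in KO, and its KO mean was 2.24 times WT. Znf720, named as a zinc finger gene, was at 51.3 and 76.3 CPM in WT, 92.0 and 85.1 in HET, against 136, 190 and 157 in KO. Its WT libraries were far apart, and the KO mean of 161 ± 27.4 (SD, n = 3) was 2.52 times the WT mean of 63.8 ± 17.7 (SD, n = 2). Nol9, a polynucleotide kinase of ribosomal RNA processing, was at 86.6 and 67.9 CPM in WT, 99.6 and 118 in HET, against 127, 142 and 128 in KO, with HET at 56.7% of the way.

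Abi2, an Abl interactor in the WAVE complex that drives actin branching, had CPM values of 106 and 108 in WT, 113 and 129 in HET, against 162, 210 and 177 in KO. HET was little above WT, at 18.5% of the way, and KO reached 1.71 times WT. Htt, the huntingtin gene, met the order by the narrowest margin of the named ascending genes. Its WT libraries were at 15.9 and 13.6 CPM, the HET libraries at 15.9 and 18.3, against the KO libraries at 31.5, 20.1 and 21.4, and the clear step of 0.002 on the log2 scale was the gap between WT 1 and HET 2. The most abundant ascending gene, ENSMAUG00000011425, was at 297 and 282 CPM in WT, 346 and 345 in HET, against 366, 358 and 364 in KO. Its libraries were close within each genotype, and KO was 1.25 times WT.

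The 70 descending genes were more abundant and their differences smaller. The median of their mean CPM was 37.9, with 23 genes at 100 CPM or more and 19 under 10. The median KO level was 62.7% of WT and the median HET level 81.2%. In 23 genes the KO mean was at least 2-fold under the WT mean, and 17 of these kept their order under all 3 scalings. Of the 23 descending genes at 100 CPM or more, 4 kept it, and of the 19 under 10 CPM, 12 did. In the 28 descending genes that kept their order, the median KO level was 43.2% of WT.

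Rhbdd1 (ENSMAUG00000017311), a rhomboid protease of the endoplasmic reticulum, was the descending gene with the widest clear step (1.04). Its CPM values were 6.35 and 6.17 in WT, 1.19 and 1.29 in HET, against 0.077, 0.324 and 0.144 in KO. The WT libraries were close to each other, as were the HET libraries, and KO libraries held 2, 11 and 4 counts. HET was at 19.8% and KO at 2.9% of the WT mean, so that 82.6% of the difference was present in HET. The WT mean was 34.5 times the KO mean, and 56.8 times without KO 2.

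Boll, a germ cell RNA-binding protein of the DAZ family, showed a similar shape. It was at 7.42 and 9.29 CPM in WT, 2.91 and 0.681 in HET, against 0, 0.177 and 0.143 in KO. The HET libraries differed from each other more than 4 times over, with 88 and 19 counts, and KO held 0, 6 and 4 counts. The WT mean of 8.36 ± 1.32 CPM (SD, n = 2) was 4.65 times the HET mean and 78.3 times the KO mean, which rests on these few counts. The first ratio was 12.3 without HET 2 and 2.87 without HET 3. Tmem231, a protein of the ciliary transition zone, stood at 12.5 and 22.2 CPM in WT, 10.1 and 5.80 in HET, against 2.46, 2.47 and 1.40 in KO. HET was at 45.7% and KO at 12.2% of the WT mean.

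The unnamed gene ENSMAUG00000001558 was at 47.3 and 80.5 CPM in WT, 27.0 and 24.1 in HET, against 0.154, 1.56 and 4.74 in KO. HET was 40.0% and KO 3.36% of the WT mean. The WT mean was 29.7 times the KO mean, and 74.5 times without KO 3. KO libraries thus covered a wide relative range but all stayed far below HET.

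**Figure D3:**
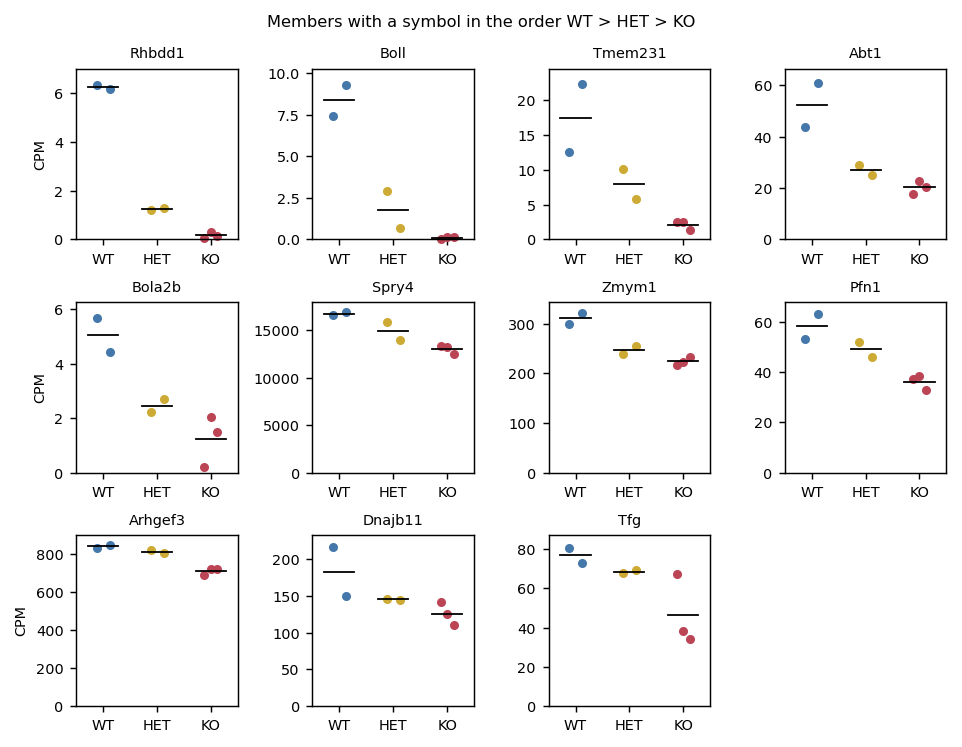
CPM (vertical axes, each from 0) of the 11 descending members with a symbol, with a point for each library and a line at the genotype mean. Rhbdd1, Boll and Tmem231 approach 0 in KO, whereas Spry4, Arhgef3 and Zmym1 remain above 70% of their WT means.

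A further 8 descending genes had a symbol. Abt1, an activator of basal transcription with a role in ribosome biogenesis, was at 43.7 and 61.1 CPM in WT, 28.9 and 25.2 in HET, against 17.8, 22.9 and 20.3 in KO. HET was at 51.6% and KO at 38.7% of the WT mean, a large first and a small second step. Bola2b, of a family that handles iron-sulfur clusters, was at 5.69 and 4.44 CPM in WT, 2.22 and 2.69 in HET, against 0.193, 2.03 and 1.51 in KO. The single low library KO 1 gave the KO mean of 1.24 ± 0.948 (SD, n = 3) most of its spread. Zmym1, a MYM-type zinc finger gene, stood at 299 and 323 CPM in WT, 239 and 256 in HET, against 218, 224 and 233 in KO, with KO at 72.3% of WT. These 3 genes kept their order under all 3 scalings.

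The other 5 named descending genes lost their order under at least another scaling. Spry4, an antagonist of receptor tyrosine kinase signalling, was the most abundant member, at 16630 and 16920 CPM in WT, 15900 and 14030 in HET, against 13300, 13230 and 12540 in KO. Its KO mean was 77.6% of WT. Arhgef3, a guanine nucleotide exchange factor, was at 831 and 846 CPM in WT, 817 and 804 in HET, against 688, 717 and 719 in KO, and HET was at 96.6% of WT. Both were abundant, and their order by CPM rested on small relative steps.

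Pfn1, the actin-binding profilin 1, was at 53.4 and 63.3 CPM in WT, 52.2 and 46.0 in HET, against 37.2, 38.4 and 33.0 in KO. Dnajb11, a co-chaperone of the endoplasmic reticulum, was at 217 and 150 CPM in WT, 146 and 144 in HET, against 142, 125 and 110 in KO. Tfg, which acts at endoplasmic reticulum exit sites, was at 80.8 and 73.1 CPM in WT, 68.0 and 69.2 in HET, against 67.2, 38.5 and 34.3 in KO. In Dnajb11 WT 1 was far above WT 2, and in Tfg KO 1 was next to the HET libraries, so that single libraries set much of their means. Among unnamed genes, ENSMAUG00000014312 shows how small a step could meet the rule. It was at 1176 and 1187 CPM in WT, 1073 and 1057 in HET, against 1048, 1051 and 1045 in KO, and HET and KO differed by a ratio of 1.02 in their means.

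The place of HET between WT and KO varied widely. Placed on a linear CPM scale between the WT mean (0%) and the KO mean (100%), HET had a median of 40.6% in ascending genes (range 12.2 to 76.7%) and of 53.9% in descending genes (15.0 to 87.0%). HET was nearer to WT in 22 of 31 ascending and 30 of 70 descending genes. Among members that kept their order under all scalings, HET was nearer to WT in 22 of 30 ascending and 9 of 28 descending genes, with medians of 39.5 and 57.2%. The rule requires HET to lie between the others, and only where it lay was free. On a linear scale, equal fold steps place HET nearer to WT in an ascending gene and nearer to KO in a descending gene. The contrast between the 2 directions is therefore partly set by the scale, and nothing is read from it. In a gene with 2 and 3 libraries per genotype these positions have wide errors.

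**Figure D4:**
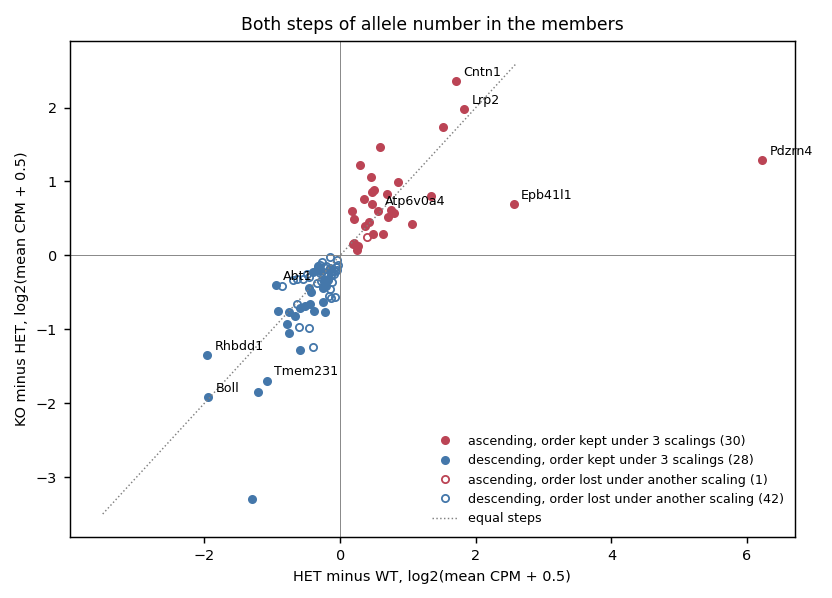
HET minus WT (horizontal axis) against KO minus HET (vertical axis), both on log2(mean CPM + 0.5), for the 101 members, with ascending genes in red and descending genes in blue. Open symbols are the 1 ascending and 42 descending genes that lost their order under another scaling, and most lie close to the origin. Pdzrn4 lies far to the right, and the dotted line marks equal steps on this scale.

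The gaps between genotypes were narrow in many members. The median clear step was 0.113 in ascending and 0.044 in descending genes on the log2 scale, and it was under 0.05 in 7 of 31 and 38 of 70. The ascending gene and the 42 descending genes that lost their order under another scaling had clear steps of at most 0.01 and 0.105. Neighbouring genotypes were at least 1.2-fold apart at their nearest libraries in 7 ascending and 10 descending genes, and all 17 kept their order under the 3 scalings. Those with a symbol were Lrp2, Pdzrn4, Cntn1, Epb41l1, Rhbdd1, Boll and Tmem231. Just outside the rule, 57 genes in the ascending and 147 in the descending direction had 1 of 16 pairs of libraries out of order. At the abundance minimum, the nearest ascending members had mean CPM of 2.26 and 2.43 and the nearest ordered genes below it 1.95 and 1.87. For descending genes these were 2.22 (Rhbdd1) and 2.37 against 1.30 and 1.26. In all, 28 ascending and 9 descending genes had the order below the minimum.

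Library by library, WT 2, from the 17-week female, was farther from HET than WT 1 in 17 of 31 ascending and 41 of 70 descending genes. Over all tested genes, WT 2 was below WT 1 in 44.3% and above it in 55.6%. The library of the oldest female, KO 1, was the farthest KO library from HET in 14 of 31 ascending and 37 of 70 descending genes, and the nearest in 10 and 16. Over all tested genes, KO 1 was the highest KO library in 35.5% and the lowest in 38.3%. The part of age in the order was not tested beyond the fits given for the whole table below. Counts that were not whole, which arise where a read was shared between loci or genes, were found in any library for 32.3% of ascending, 55.7% of descending and 52.7% of all tested genes. Values of such genes are uncertain in proportion to what was shared.

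Each comparison of 2 genotypes was also fitted over the whole table with DESeq2 (Wald test, Benjamini-Hochberg adjusted p under 0.01). Between KO and WT, 9 of 31 ascending members were called (background 0.411% of 12407 genes tested were called higher in KO) and 4 of 70 descending members (background 0.0967% called lower). The ascending genes called were Lrp2, Pdzrn4, Cntn1, Epb41l1, Atp6v0a4, Znf720, Nol9, Abi2 and ENSMAUG00000013244, and the descending genes were Rhbdd1, Boll, Tmem231 and Abt1. Between HET and WT, Pdzrn4 and Epb41l1 were called among ascending members (background 0.31%) and no descending member was (background 0.133%). Between KO and HET, Pdzrn4 was the only member called (background 0.201% higher and 0.0334% lower). That call was lost without HET 3, KO 1, KO 2 or KO 3, and with the replicate number as a block. The ratio of the KO to the HET mean of Pdzrn4 was 2.46 with all libraries. It was 2.15, 2.55, 2.58 and 2.25 without HET 3, KO 1, KO 2 and KO 3. In either direction, these were 13 of 101 members in KO against WT (background 0.508%), 2 in HET against WT (0.443%) and 1 in KO against HET (0.234%). With allele number as a numeric term, 13 ascending (background 0.22%) and 6 descending members (background 0.114%) were called, 19 in all (background 0.333%). The rule had used these contrasts, so nothing is read from these counts. The edgeR quasi-likelihood test made few calls anywhere, with 1, 2, 1 and 0 of 11220 genes in KO against WT, KO against HET, HET against WT and by allele number. Of these, 1, 0, 1 and 0 were members, while 656, 582, 661 and 621 genes had an unadjusted p under 0.05. With age as a covariate, DESeq2 called 4 members in KO against WT (36 of 14980 genes over the whole table), 0 in KO against HET (28 of 14708), 2 in HET against WT (40 of 13282) and 3 by allele number (7 of 14980).

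Of 31 listed piRNA pathway genes, 18 could be matched to an identifier, and 16 of these reached the CPM minimum. None of the 16 was a member, where members made up 1.2% of all tested genes and Mov10l1 and Piwil3 were left out by rule, so nothing is read from this count. Mov10l1 was the only one of the 18 called between KO and WT (background 0.508% of 12407 genes tested, either direction). The others on the list were not analysed here and could be among the 81 members without a symbol. The PIWI gene Piwil1 was at 60.8 and 72.6 CPM in WT, 71.2 and 146 in HET, against 112, 119 and 122 in KO, so that HET libraries spread across the KO level. Piwil3, left out by rule, was at 102 and 80.0 CPM in WT, 88.2 and 106 in HET, against 109, 129 and 140 in KO, where WT and HET overlapped. Tdrd1, a Tudor scaffold protein of piRNA biogenesis, was at 439 and 413 in WT, 314 and 496 in HET, against 271, 357 and 344 in KO.

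The labelled cell type was checked against markers as far as symbols allowed, and none of the 6 matched markers at the CPM minimum was a member (background 1.2% of tested genes), a number too small to read. The 4 of 20 oocyte markers matched (Nobox, Kit, Dazl and Ddx4) were present in every library, with summed levels of 1050 to 1080 CPM in WT, 937 to 1170 in HET and 882 to 917 in KO. Of 18 granulosa and cumulus markers 3 were matched, and their sum was 0.536 to 4.97 CPM in WT, 1.72 to 13.8 in HET and 2.91 to 14.5 in KO. Inhba, an inhibin subunit, was at 0.0412 and 0.0318 CPM in WT, 0.397 and 13.8 in HET, against 3.43, 12.6 and 2.26 in KO. It was above WT in every HET and KO library, as the scarce ascending genes were. Inhba was called by DESeq2 in KO against WT (background 0.508% in either direction) and in HET against WT (background 0.443%). The other matched markers were not. Inha, another inhibin subunit, was at 0 and 1.46 CPM in WT, 0.0662 and 0 in HET, against 0.27, 0.883 and 0.646 in KO, and CYP11A1, a steroid-producing enzyme, at 0.495 and 3.48 in WT, 1.26 and 0.0179 in HET, against 0.0385, 1.0 and 0 in KO. The part of other cells in the members' values was not tested. Of 12 blood and immune markers 2 were matched. Cd3e was at 0 in all libraries but KO 2, where it was at 0.0294 CPM, and Csf1r was at 1540 to 1630 CPM in WT, 1470 to 2050 in HET and 1750 to 1780 in KO.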

How the data were processed

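RNA of GV oocytes, extracted as total RNA and labelled polyA RNA, was amplified and sequenced by the authors as 100 nt single-end reads after 9 cycles of library PCR. They aligned reads to the MesAur1.0 assembly with STAR (2.7.3a), allowing 20 alignments per read, and counted Ensembl (release 99) exons with featureCounts (2.0.0), without strand. The deposited values are estimated counts, because the authors divided shared reads into fractions (10.2 to 11.8% of values per library were not whole). Paralogues, overlapping and antisense genes are therefore uncertain. Columns were assigned by sample label.

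CPM used column totals. Means, SD and order were computed with pandas (2.3.3). Counts were rounded for DESeq2 (1.42.0) and edgeR (4.0.16) in R (4.3.3). All 7 libraries entered a fit with genotype as a factor, or with allele number. Scripts were tested on simulated data. p-values measure the spread between animals, which includes amplification.

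Members and lists were chosen with earlier results of these data known. Named are the 8 widest clear steps and 5 highest means per direction, listed pathway or marker genes and those nearest the minimum, with at most 2 unnamed identifiers per direction. The rule for naming did not cover Htt, Bola2b, Abt1, Pfn1, Dnajb11, Tfg and Zmym1, which were named after their values were seen, because they have a symbol. The count table pairs no identifiers with symbols, and 1041 pairs came from the study's gene lists, without values. Deviations of libraries with the same replicate number were hardly correlated (−0.023 to 0.072 over 5 pairs). Groups this small cannot exclude pairing. The females of HET 2 and KO 2 were both 40 weeks old, and those of HET 3 and KO 3 both 36.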

Additional observations from a re-analysis of the deposited data

How the results depend on the processing

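The count of ascending members was 49 with size factors, 55 with TMM, 18 at a mean CPM of at least 10 and 7 with 1.2-fold gaps, against 31. That of descending members was 40 with size factors, 40 with TMM and 10 with 1.2-fold gaps, against 70. A mean CPM of at least 1, or rounding, kept both within 1.5 times. Leaving out a library removes comparisons from the rule, and gave 56 to 130 ascending and 122 to 262 descending genes, keeping 30 to 31 and 67 to 70 members. Of the members called by DESeq2, KO against WT gave 13 (1 by edgeR, 4 with age, 23 at an adjusted p under 0.05, 8 to 16 leaving out a library, where 63, 1, 36, 134 and 20 to 96 of all genes were called, with 8 without WT 1 and 8 without WT 2). KO against HET gave 1 (0 by edgeR and 0 with age, 0 to 2 leaving out a library, with 2 without WT 2, where 35, 2, 28 and 11 to 158 of all genes were called). This call, Pdzrn4, was lost without HET 3, KO 1, KO 2 or KO 3. HET against WT gave 2 (1 by edgeR, 4 at an adjusted p under 0.05, 2 to 3 leaving out a library, where 50, 1, 113 and 34 to 99 of all genes were called). Allele number gave 19 (0 by edgeR, 3 with age, 11 with at least 10 counts in 3 libraries, 7 to 17 leaving out a library, where 44, 0, 7, 25 and 25 to 62 of all genes were called, with 10 without WT 1, 7 without WT 2, 11 without KO 2 and 11 without KO 3). A replicate block gave 13, 2, 2 and 14 members of 87, 147, 57 and 65 genes called, and Pdzrn4 was not among the 2 in KO against HET. Whether replicate numbers pair libraries is not known. Over the 34 members that the naming rule covers or that have a symbol, 352 of 374 recomputed log2 fold changes of KO against WT moved by no more than the fit's standard error, 22 moved by more, and 0 changed direction. The cause of these shifts was not tested. The rule had placed every KO library beyond every WT library in CPM, so a change of direction could hardly occur. Fits without a HET library also leave this contrast nearly as it was. Small groups, amplification from few oocytes and levels of a few counts in WT or KO limit every value for scarce members.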
